A study of Gorilla gorilla gorilla with 14 samples.

Results

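Constitutively open distal regions are stretches of accessible chromatin that stood at nearly the same level in 4 sorted cell types of gorilla cerebral organoids. They were chosen from the read counts of an ATAC-seq experiment, which uses a transposase to place sequencing adapters in DNA that is not packed away. A distal region was one listed more than 1000 bp and at most 200000 bp from its closest gene. The reference point of this distance is not stated, so a distal region may lie inside a gene. A distal region was constitutively open when the mean level of every cell type was at least 5 CPM (counts scaled to a library total of 1000000) and the highest mean was at most 25% above the lowest. This left 1257 of 176462 distal regions (0.712%), out of 204249 regions in all. Another 11339 distal regions had all 4 means at or above 5 CPM but a wider spread, and serve here as the other open distal regions. The cell type means themselves chose the regions, so the evenness of these means is a description and was not tested.

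Most distal open chromatin in a developing tissue belongs to enhancers, which open and close as cells change fate. A smaller class stays open in most cell types, and such sites are known to include binding sites of CTCF, the zinc finger protein that together with the cohesin complex shapes chromatin loops, and unannotated promoters. In the developing cortex, apical radial glia divide as stem cells at the ventricle, basal radial glia are stem cells without contact to it, and basal intermediate progenitors divide to give neurons. No genome of the files' build was used here, so neither the sequences of the regions nor CTCF motifs in them were examined.

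All organoids came from 1 gorilla induced pluripotent stem cell line, GC1, and were cultured to week 8, and their cells were sorted by flow cytometry. The labels name no further treatment, and the transposed cells went through a reversal of crosslinks as used for fixed cells. The groups were apical radial glia (aRG, 3 libraries), basal radial glia (bRG, 2), basal intermediate progenitors (bIP, 5) and neurons (N, 4). Library numbers in the labels fall into 2 runs, a first and a second library series. Both bRG libraries, aRG replicate 3, bIP replicates 4 and 5 and N replicates 3 and 4 are of the second. The labels name no separate cultures, so p-values measure the spread between these libraries only, which may be technical.

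Promoters of known marker genes were read against the labels. SOX2, a factor of neural stem cells, had a mean of 55.7 CPM ± 0.532 (SD) over the 3 aRG libraries, 50.4 ± 2.17 over the 2 of bRG, 32.0 ± 5.07 over the 5 of bIP and 10.2 ± 2.73 over the 4 of N. EOMES, a factor of intermediate progenitors, was highest in bIP at 80.6 ± 11.5 CPM. It had 29.7 ± 12.8 CPM in aRG, 47.1 ± 2.28 in bRG and 38.5 ± 6.52 in N. NEUROD2, a factor of excitatory neurons, stood at 3.71 ± 2.49 CPM in aRG and 5.46 ± 0.541 in bRG. It had 33.2 ± 3.75 CPM in bIP and 39.9 ± 6.36 in N, so its promoter did not mark N alone. BCL11B, a factor of deep-layer neurons, showed no such order, at 18.5 ± 2.94 CPM in aRG and 21.2 ± 2.67 in N. HOPX, a marker of basal radial glia, had 23.6 ± 2.78 CPM in aRG and 21.4 ± 2.72 in bRG, so its promoter did not set bRG apart from aRG. Library totals ran from 12836073 to 26661992 counts, so 3 counts, the floor used here, correspond to 0.113 to 0.234 CPM. The floor covers counting error at most, since several reads can stem from 1 molecule. The Wilson intervals below (95%) are for shares of regions. They treat regions as independent and do not cover the spread between libraries. Neuron libraries varied most in composition: regions within 1000 bp of a gene, called promoter regions here, held 39.1% of counts in N replicate 2 and 30.4% in N replicate 3, around a mean of 33.9% ± 3.7 in N and 38.5% ± 0.58 in aRG.

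The rule holds the cell type means of these regions close, and so the share of counts that falls in them. The aRG libraries had 2.04% ± 0.027 (SD) of their counts in them, the bRG libraries 1.98% ± 0.0045, bIP 1.98% ± 0.068 and N 1.97% ± 0.12. The extreme libraries were again neurons, N replicate 2 at 2.13% and N replicate 3 at 1.85%, the same 2 libraries that stood apart in promoter counts. The part that library composition has in this was not tested.

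The 1257 regions did not form a separate class in the distribution of evenness. Their ratio of highest to lowest mean had a median of 1.18 and quartiles of 1.14 and 1.22, while the other open distal regions had a median of 1.99 and quartiles of 1.56 and 2.76. The smallest ratio was 1.01, and 136 regions had a ratio of at most 1.1. The regions just inside the ratio limit, near CAMK2A and a copy of the small nucleolar RNA U3, had ratios of 1.2499 and 1.2498, and KLHDC10 lay between them and the limit. Those just outside, near HDDC3, ABCC10 and ADAM20P2, all had 1.2501. At the level limit, regions inside it had lowest means of 5.01 CPM near GRID1 and 5.02 CPM near RNU7-9P. Just outside it, LOXL1 had 4.99 CPM, and LINC02093 and SRSF4 were below 5 CPM by less than the rounding. The cell type with the highest mean was aRG in 376 regions, bRG in 332, N in 314 and bIP in 235. The lowest was N in 394, bIP in 325, bRG in 305 and aRG in 233.

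**Figure D1:**
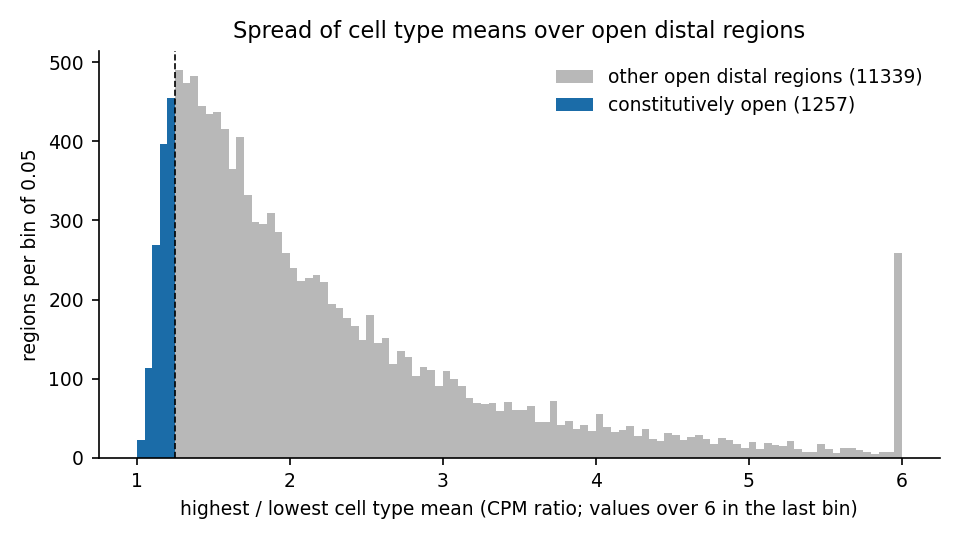
Histogram of the ratio of the highest to the lowest cell type mean (CPM) over distal regions with all 4 means of at least 5 CPM, in bins of 0.05, with ratios above 6 gathered in the last bin. The 1257 constitutive regions (blue) are the left edge of one continuous distribution that includes the 11339 other open distal regions (grey), and the dashed line marks the limit of 25% above the lowest mean.

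Strong distal regions were constitutive more often than weak ones. Of the distal regions whose lowest mean was 5 to 7 CPM, 362 of 4930 met the ratio, or 7.34% (Wilson interval 6.65 to 8.10%). At 20 to 30 CPM it was 183 of 714, or 25.6% (22.6 to 29.0%), and at 30 to 50 CPM 117 of 327, or 35.8% (30.8 to 41.1%). Above 50 CPM only 24 regions remained, of which 5 met it. The level enters the rule and counting error is smaller in strong regions, so the rise with level is a description. Across all levels, the mean level of the constitutive regions had a median of 11.6 CPM and a range from 5.25 to 77.5 CPM. The other open distal regions had a higher median, 13.3 CPM, and a lower upper quartile, 19.4 CPM against 21.2 CPM. Of the constitutive regions, 147 had a mean of at least 30 CPM and 560 had one under 10 CPM.

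Constitutive regions had shorter listed distances to genes. Their median distance to the listed gene was 11627 bp, against 18327 bp in the other open distal regions, and 348 of them (27.7%) lay within 5000 bp, against 18.4%. The share of open distal regions that met the ratio fell in every step, from 16.8% (14.3 to 19.6%) at 1000 to 2000 bp to 5.75% (4.30 to 7.65%) at 100000 to 200000 bp. Promoter regions at or above 5 CPM in all cell types met it in 40.4% of 12004 cases (39.5 to 41.3%). The order by distance was present among strong and weak regions alike. With a lowest mean of at least 20 CPM, the share was 35.2% within 5000 bp and 22.5% beyond 20000 bp. Under 10 CPM it was 9.94% and 5.93%.

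They were also narrower, with a median width of 1276 bp against 1435 bp. Open distal regions of up to 500 bp met the ratio in 37 of 137 cases (27.0%, 20.3 to 35.0%), and those of 2000 to 3000 bp in 120 of 1762 (6.81%, 5.73 to 8.08%). Per kb of width, the median level was 10.1 CPM per kb in the constitutive and 9.75 in the other open distal regions.

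**Figure D2:**
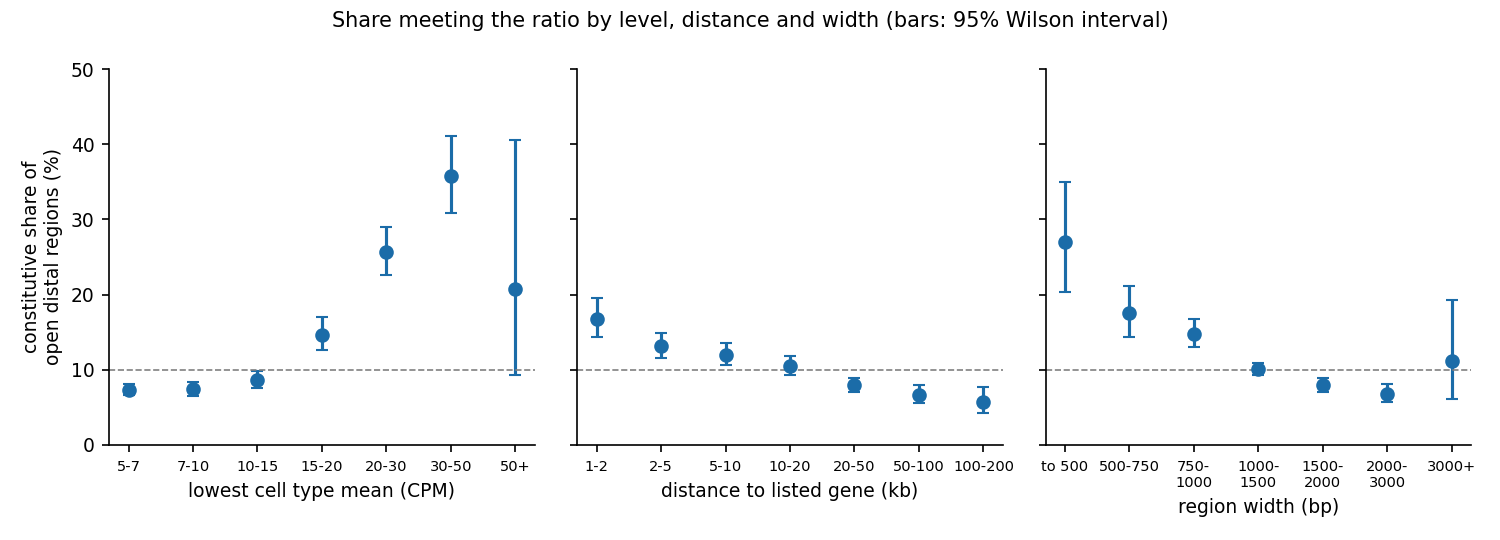
Percentage of open distal regions (all 4 cell type means at least 5 CPM) that met the limit on the ratio, by lowest cell type mean, distance to the listed gene and region width, with 95% Wilson intervals as bars and the share over all open distal regions (9.98%) as a dashed line. The share rises from 7.34% at 5 to 7 CPM to 35.8% at 30 to 50 CPM, and falls with distance from 16.8% to 5.75% and with width from 27.0% to 6.81% before the last, thinly filled bin.

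Constitutive regions were found on every autosome. Chromosome 19, known for its gene density, had the highest share of open distal regions that were constitutive, 54 of 338 (Wilson interval 12.5 to 20.3%). Chromosomes 18 and 4 had the lowest, 6.93% (4.48 to 10.6%) and 7.05% (5.22 to 9.46%), below the 9.98% over all open distal regions. The X chromosome, with 137 regions in all, had no open distal region and thus no constitutive one. Gorilla chromosomes 5 and 17 carry exchanged segments relative to human chromosomes 5 and 17, and the table gives both positions. On gorilla chromosome 5, 50 constitutive regions had a human position on chromosome 17, and 15 had the reverse, together 5.17% of them against 5.79% of the other open distal regions. A chimpanzee position was listed for 98.4% of the constitutive and 98.9% of the other open distal regions. The gorilla and human widths differed by over 10% in 27 constitutive regions (2.15%) and in 1.64% of the others.

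The authors' peak sets, 1 per cell type, gave another view of the same reads. Chromosomes 2A and 2B were left out because the peak sets do not hold them. Of 1156 constitutive regions, 1083 (93.7%, 92.1 to 94.9%) overlapped a peak in all 4 sets, against 84.7% (84.0 to 85.3%) of 10401 other open distal regions. A peak was missing in the N set alone for 2.42% of the constitutive and 8.08% of the other regions. The peaks come from the reads whose means chose the regions, so these shares are not independent of the choice and are a description. The median fold enrichment of the highest peak, the authors' own value, was 13.9 in the aRG set, 11.8 in bRG, 12.8 in bIP and 12.3 in N, against 11.2, 9.20, 10.4 and 9.96 for the other open distal regions. As with counts, tall peaks were constitutive more often: with a fold over 20, 26.3% in the aRG set, 33.9% in bRG, 28.5% in bIP and 30.6% in N. No peak in any set was touched by 8 of the 1156 (0.692%), against 16 of the 10401 other open distal regions (0.154%). The strongest of the 8 lay near AL136366.1, at chr9:25023181-25025506 (gorGor6), and was singled out after its values were seen.

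Libraries of 1 cell type also scattered less at the constitutive regions. The pooled standard deviation between libraries of a cell type, on the log2(CPM + 0.1) scale with 10 degrees of freedom, had a median of 0.181, against 0.245 in the other open distal regions. At a lowest mean of 5 to 7 CPM it was 0.215 against 0.278, and at 20 to 30 CPM 0.155 against 0.174. A low spread makes it easier to meet a limit on means, so these values are not independent of the choice. Counts behind each value were ample: the median was 232 counts per library, and the lowest count of any constitutive region in any library was 38.

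The strongest constitutive region lay at chr1:114785514-114787158 (gorGor6), 38627 bp from MTND5P20, a pseudogene of mitochondrial origin. It stood at 85.0, 79.3 and 79.8 CPM in aRG, 84.9 and 84.8 in bRG, 72.9, 74.2, 62.0, 81.0 and 64.9 in bIP, and 73.9, 66.5, 66.2 and 84.4 in N. Both bRG libraries lay above every bIP and N library, and the ranges of the other groups overlapped. The next lay at chr17:6800041-6801664, 4256 bp from DLG4, which encodes the postsynaptic scaffold PSD-95. Its libraries read 85.8, 90.2 and 77.6 CPM in aRG, 72.5 and 63.0 in bRG, 74.3, 77.8, 64.4, 75.9 and 73.1 in bIP, and 85.4, 92.5, 60.0 and 81.2 in N. Here N replicates 2 and 3 were the highest and the lowest of all libraries, in the order of their promoter counts.

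The other 8 of the 10 strongest had means from 51.9 to 66.5 CPM. They lay near AC114971.1 (66.5 CPM), MPZL1 (60.4), a cell surface protein gene, GTF2IRD2 (58.4), WDR74 (55.2), a gene of ribosome assembly, AL645924.2 (53.8), HRC (53.5), a calcium-binding protein gene of muscle, GNGT2 (52.5), a G protein subunit gene, and a Y_RNA copy (51.9). GTF2IRD2 has near-identical copies nearby in great ape genomes, and reads could be divided among them, so its value is uncertain. Of the 10, 6 lay within 5000 bp of the listed gene.

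The most even region was at chr11:95776205-95777846, 22693 bp from AP003100.3, with a ratio of 1.014 between means near 9.15 CPM. Its libraries were not as even as its means, from 8.53 to 9.64 CPM in aRG and from 6.80 to 13.6 CPM in N. The next 3, near STOML1, AL162578.1 and AC104024.2, had ratios of 1.017, 1.030 and 1.032 and means of 5.80, 5.56 and 5.25 CPM. The fifth lay at chr1:175518233-175519966, 20149 bp from NFASC, the gene of neurofascin, a cell adhesion protein of the axon initial segment. Its level was 18.9, 18.7 and 19.7 CPM in aRG, 18.3 and 18.8 in bRG, 18.6, 17.6, 18.2, 18.1 and 20.3 in bIP, and 17.9, 20.3, 18.8 and 17.5 in N. All 14 libraries thus lay between 17.5 and 20.3 CPM, and the groups overlapped throughout.

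The rule used all 6 contrasts between cell types and these same libraries, so the intervals and counts here describe the choice and test nothing. edgeR's quasi-likelihood fit gave a 95% interval for each of the 6 pairs of cell types, and for 1219 of the 1257 regions all 6 intervals lay within a 2-fold difference. For only 42 did all 6 lie within 1.5-fold, so at most of these regions smaller differences were not resolved. Between N and aRG, 83 constitutive regions were called, all lower in N, beside 66.4% of all 200931 regions tested. N against bIP had 20, all lower in N, beside 55.2%. N against bRG had 2 beside 58.1%, and bIP against bRG had 1 beside 36.5%. No constitutive region was called by edgeR between bIP and aRG (beside 44.9%), where 16 had an unadjusted p under 0.05 and DESeq2 called 20. None was called between bRG and aRG (beside 0% of all regions), where 5 had an unadjusted p under 0.05 and DESeq2 called 0. The fit scales libraries by TMM factors (0.875 to 1.23) and the rule by library totals. The step from totals to TMM moves every log2 difference of N from aRG by −0.16, and the median difference of the constitutive regions in that fit was −0.20, against 0.18 over all regions. Scaled by library totals, 46 were called between N and aRG, 3 higher and 43 lower in N, and with DESeq2 size factors 243, all lower. With 2 bRG libraries, all in 1 series, the median half-width of the interval was 0.52 (log2) for bRG against aRG and 0.38 for bIP against aRG.

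Genes listed closest to the constitutive regions were diverse. There were 1196 distinct names, of which 1152 had 1 region, 40 had 2 and 3 had 3, while Y_RNA, a name shared by many small RNA copies, had 16 regions on 10 chromosomes. Y_RNA copies were listed for 119 open distal regions, of which these were 13.4%, against the 9.98% of all. A protein-coding gene of the RefSeq table was listed for 37.9% of the constitutive regions and 30.2% of the other open distal regions. The listed name matched no symbol of that table for 61.7% and 69.2%. For names starting with RPL or RPS, 28 of 225 open distal regions were constitutive (12.4%). Zinc finger genes named ZNF had 14 of 69 (20.3%).

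Genes with 3 constitutive regions were PRR7-AS1, LINC01962 and Metazoa_SRP, the last a name shared by copies of the signal recognition particle RNA. The 3 near PRR7-AS1, an antisense transcript at the gene of a synaptic membrane protein, lay side by side on chromosome 5, between 5496 and 8630 bp from it. They had means of 12.4, 49.1 and 8.50 CPM and ratios of 1.104, 1.084 and 1.134. The middle one, chr5:156880801-156883157, read 42.6, 46.0 and 54.8 CPM in aRG, 52.6 and 48.8 in bRG, 46.8, 48.5, 39.7, 58.4 and 61.6 in bIP, and 40.5, 57.6, 45.0 and 45.0 in N. Its groups overlapped, and the highest and lowest libraries, bIP replicates 5 and 3, were of the same cell type. The 3 near LINC01962 had means of 10.1, 9.87 and 24.9 CPM.

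Among marker genes of the sorted cells, few had a constitutive region. Genes of radial glia in both positions had 21 open distal regions and 0 constitutive ones, and basal radial glia genes had 0 of 6. Basal intermediate progenitor genes had 1 of 18. It lay 56163 bp from PPP1R17, a phosphatase inhibitor gene expressed in these progenitors, and had a mean of 5.56 CPM with libraries from 4.31 to 6.23 CPM in bIP and from 4.16 to 7.56 in N. Genes of excitatory cortical neurons had 3 of 18 (16.7%). The one 2337 bp from TUBB3, the neuronal tubulin gene, read 28.1, 31.2 and 29.6 CPM in aRG, 27.6 and 28.1 in bRG, 32.0, 31.3, 23.4, 29.1 and 31.2 in bIP, and 25.7, 31.0, 17.7 and 21.9 in N. N replicate 3 was the lowest of the 14, and N overlapped every other group. The one 2167 bp from BCL11B had a mean of 16.1 CPM, from 14.9 to 18.1 in aRG and from 12.2 to 17.8 in N. The one assigned to MYT1L is described with its promoter below. With so few regions in each list, these shares were not tested against the 9.98% over all open distal regions.

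Genes of other fates also had constitutive regions nearby. One of 6 open distal regions of the GABAergic list was constitutive, 14203 bp from LHX6, an interneuron factor, at a mean of 7.57 CPM. WNT8B, a ligand of the cortical hem, had 2 of the 4 of its list, at 17.1 and 8.00 CPM. FOXC2, a mesenchymal factor, had 1 of the 6 of its list, at 10.6 CPM. CDKN1C, an imprinted inhibitor of the cell cycle, had 1 of the 10 of the imprinted list, at 6.11 CPM. Genes of the oligodendrocyte lineage and astrocytes had 0 of 1, and the HOX clusters 0 of 1. The clustered protocadherins, whose promoters are known to be chosen through CTCF and cohesin, had 1 of 4. That region, 4424 bp from PCDHGC5 at chr5:120990800-120993046, stood at 28.2, 26.6 and 27.7 CPM in aRG, 29.7 and 25.7 in bRG, 24.6, 21.2, 23.9, 21.7 and 25.4 in bIP, and 22.4, 23.7, 22.2 and 27.3 in N. Every bIP library lay below every radial glia library, and N overlapped each other group. Cell cycle, housekeeping and chromatin architecture genes had 0 of 6, 0 of 1 and 0 of 5, and pluripotency genes had no open distal region.

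The promoters of the listed genes were not used by the rule, and they changed between cell types at shares that lay between those of all promoters and of promoters near other open distal regions. A promoter could be matched for 658 constitutive regions and 633 genes. From aRG to bIP, 198 of these 633 promoters changed (31.3%), 89 higher and 109 lower in bIP. The background over 19305 promoters of all genes was 29.0%, with 10.7% higher and 18.4% lower, and promoters of genes listed only for other open distal regions changed in 37.4%. From bIP to N, 241 changed (38.1%), 71 higher and 170 lower in N, beside 36.0% of all promoters (13.7% higher, 22.3% lower) and 47.5% near other open distal regions. From aRG to N, 365 changed (57.7%), 114 higher and 251 lower in N, beside 51.5% of all (16.3% higher, 35.3% lower) and 60.6%. In all, 404 of the 633 (63.8%) changed in at least 1 of these 3 comparisons, and 210 (33.2%) did so by 2-fold or more, against 32.1% of all genes and 41.5% near other open distal regions. The call was edgeR's quasi-likelihood test at a Benjamini-Hochberg adjusted p under 0.05 over all 200931 regions, and these shares were compared without a test. Over genes with a constitutive region more than 5000 bp away, a choice made after seeing the data, the shares were 33.5%, 39.6% and 59.5% of 472. Without N replicate 3, 323 promoters were called from aRG to bIP in place of 198, while the share called over all regions went from 44.9% to 50.2%. In the second library series alone 78 were called from aRG to bIP, beside 24.6% of all regions. From aRG to N it was 214, beside 46.5% in place of 66.4%. These shares are over all regions, which were called more often than promoters in the main fit (44.9% against 29.0% from aRG to bIP). The share of all promoters was not counted in these settings. A filter of 10 CPM in 2 libraries left 436 of the promoters and turned the split from bIP to N to 147 higher and 84 lower. With it the split was 70 higher and 198 lower from aRG to bIP, and 121 higher and 153 lower from aRG to N. Over all regions this filter called 68.1% from bIP to N, 70.1% from aRG to bIP and 77.0% from aRG to N. How it split the promoters of all genes was not counted. Promoters that were themselves even and at or above 5 CPM made up 22.1% of the 633, against 24.7% of all.

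MYT1L, a zinc finger factor of neurons, had the promoter with the smallest adjusted p among those higher in bIP than in aRG. The promoter region (chr2A:18434719-18436294) read 5.89, 5.23 and 7.89 CPM in aRG, 5.69 and 6.46 in bRG, 45.3, 41.1, 40.0, 45.6 and 50.7 in bIP, and 50.6, 39.6, 40.3 and 49.2 in N. Every bIP and N library was above every radial glia library. The log2 difference was 2.74 ± 0.21 (SE, adjusted p = 5.9e-10) for bIP against aRG and 2.66 ± 0.21 (adjusted p = 9.2e-11) for N against aRG. The constitutive region assigned to it, chr2A:18609858-18611084, lay 175660 bp away and read 21.2, 21.9 and 21.3 CPM in aRG, 21.1 and 19.9 in bRG, 19.7, 20.4, 18.5, 18.6 and 22.6 in bIP, and 23.1, 26.5, 16.6 and 21.3 in N. The bRG libraries lay just below those of aRG, both overlapped bIP and N, and N replicates 2 and 3 were again the highest and the lowest.

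GRIN1, the gene of the obligatory NMDA receptor subunit, had a promoter at 3.64 ± 1.03 CPM in aRG and 3.03 ± 0.525 in bRG (SD, n = 3 and 2). It stood at 8.83 ± 1.36 CPM in bIP and 33.0 ± 4.35 in N (n = 5 and 4). It was higher in N than in aRG by 3.03 ± 0.24 (log2, adjusted p = 7.6e-11) and than in bIP by 1.83 ± 0.18 (adjusted p = 8.3e-09). The constitutive region 8696 bp away had means of 23.8, 21.6, 22.3 and 23.4 CPM in the same order of cell types. The NFASC promoter rose from 15.6 ± 4.09 CPM in aRG to 42.4 ± 7.43 in bIP (log2 1.36 ± 0.19, adjusted p = 1.4e-06) beside the region that kept within 17.5 to 20.3 CPM in all libraries. ANK3, the gene of ankyrin-G, which anchors neurofascin at the axon initial segment, had a promoter at 10.4 ± 1.52 CPM in aRG and 28.4 ± 3.55 in bIP (log2 1.36 ± 0.19, adjusted p = 1.3e-06). Its constitutive region had means of 8.50, 10.4, 8.97 and 8.56 CPM. The libraries of that region ran from 6.67 to 12.6 CPM in bIP and from 4.44 to 12.9 in N, and it differed between the library series (below). CAMK2B, a kinase gene of synapses, went from 6.27 ± 1.35 CPM in bIP to 24.1 ± 3.24 in N (log2 1.82 ± 0.18, adjusted p = 9.4e-09), and its region 47929 bp away had means between 9.13 and 10.4 CPM.

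Other promoters that rose belonged to genes of diverse function. The SLC10A1 promoter, of a bile acid transporter of liver, went from 0.570 ± 0.315 CPM in aRG to 13.9 ± 0.815 in N (log2 4.37 ± 0.31, adjusted p = 1.9e-11), and the constitutive region 29033 bp away had means from 38.7 to 44.5 CPM. SUB1, a transcription coactivator gene, went from 2.59 ± 0.460 to 24.4 ± 3.19 CPM (log2 3.09 ± 0.25, adjusted p = 1.8e-10) beside a region between 24.8 and 28.5 CPM. BEST1, a chloride channel gene, went from 5.17 ± 2.07 to 32.7 ± 3.96 CPM (log2 2.52 ± 0.23, adjusted p = 1.2e-09) with a region 2225 bp away between 5.76 and 6.51 CPM. The promoters of NEURL3, TMEM100 and DEGS2 rose from bIP to N by 2.76 ± 0.25, 2.21 ± 0.22 and 1.80 ± 0.19 (log2).

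Promoters that fell were led by MPPED2, a metallophosphoesterase gene. It stood at 24.8 ± 2.33 CPM in aRG and 26.2 ± 2.05 in bRG, but at 8.90 ± 2.13 in bIP and 2.39 ± 1.20 in N, a log2 difference of −3.59 ± 0.24 for N against aRG (adjusted p = 1.2e-11). The region 42012 bp away had means of 5.63, 6.79, 6.89 and 6.68 CPM. DNAH5, a dynein gene of motile cilia, had a promoter at 8.29 ± 2.31 CPM in aRG and 0.829 ± 0.338 in N (log2 −3.44 ± 0.27, adjusted p = 8.9e-11), and a region 66280 bp away between 20.1 and 22.7 CPM. TRAK1, an adaptor gene of mitochondrial transport, fell from 16.3 ± 1.74 to 3.58 ± 1.01 CPM (log2 −2.41 ± 0.18, adjusted p = 4.1e-11), with a region between 14.8 and 17.6 CPM. CRB2, of the Crumbs complex at the apical junctions of radial glia, fell from 58.4 ± 5.13 CPM in aRG to 29.4 ± 3.27 in bIP and 15.6 ± 1.74 in N. Its log2 difference was −1.08 ± 0.16 (adjusted p = 5.9e-06) for bIP against aRG, which lost its call within the second library series (log2 −0.59, adjusted p = 0.175). The region 4877 bp away had means of 8.95, 9.25, 11.1 and 10.4 CPM. In the fit its log2 difference from aRG was 0.25 ± 0.18 in bIP and 0.04 ± 0.19 in N. GRAMD1B, a sterol transfer gene, and SERPINH1, a collagen chaperone gene, fell from bIP to N by 1.21 and 1.14 on the log2 scale. BST2, an antiviral membrane protein gene, fell from aRG to bIP by 1.52, and ALLC from bIP to N by 1.46.

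**Figure D3:**
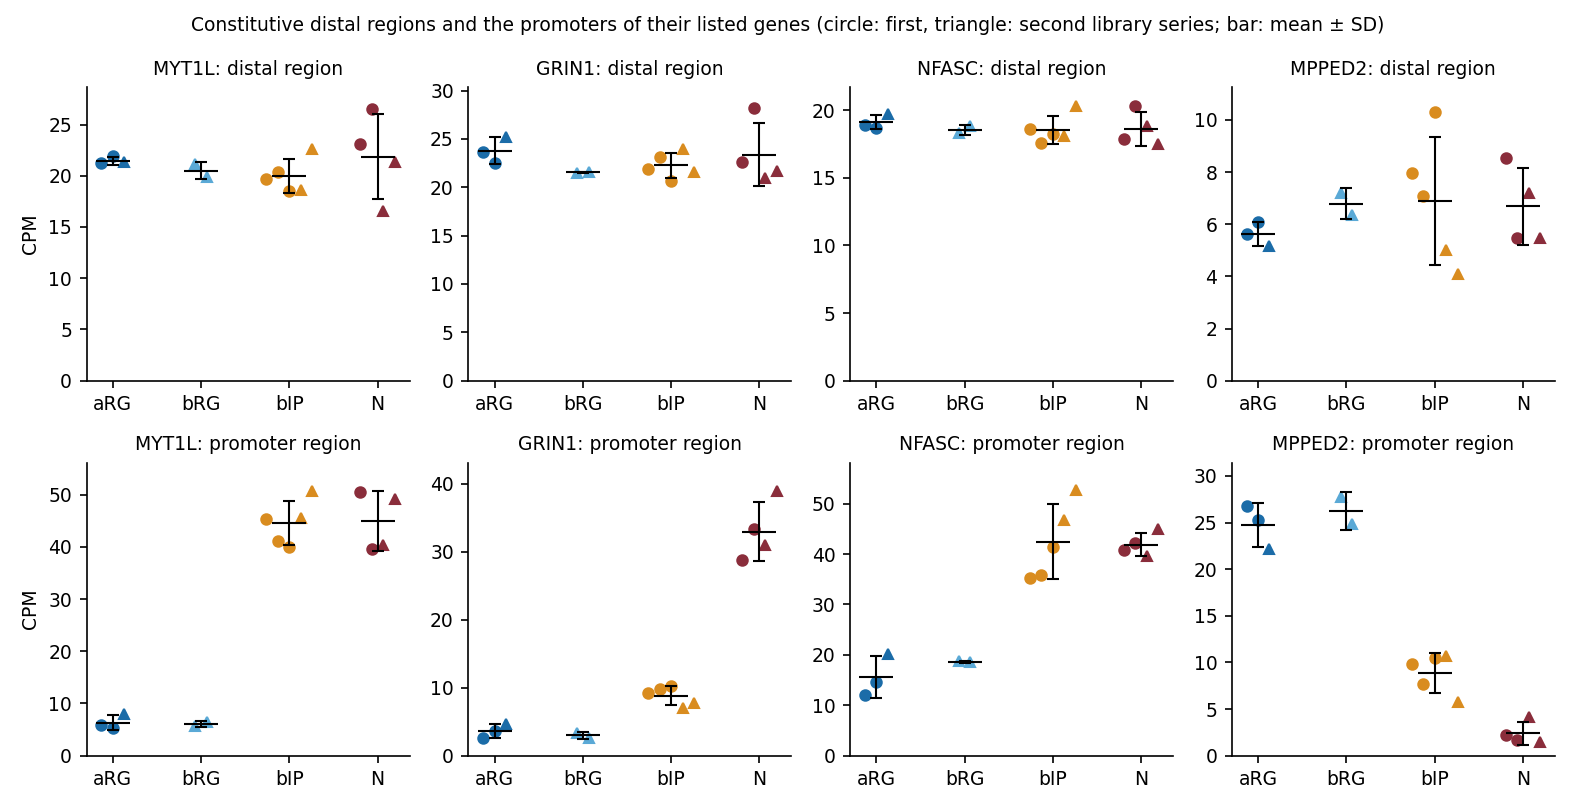
CPM in each library of the constitutive distal region (top) and of the promoter region of its listed gene (bottom) for MYT1L, GRIN1, NFASC and MPPED2, with circles for the first and triangles for the second library series and bars for mean ± SD. The MYT1L promoter lies between 5.23 and 7.89 CPM in radial glia and between 39.6 and 50.7 CPM in bIP and N, while its distal region stays between 16.6 and 26.5 CPM in every library.

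Over the 658 regions with a matched promoter, the promoter differences between N and aRG ran from −3.59 to 4.37 (log2), and those of the regions from −0.51 to 0.17. The rule fixed the narrow range of the regions, so the contrast of the ranges is a description.

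**Figure D4:**
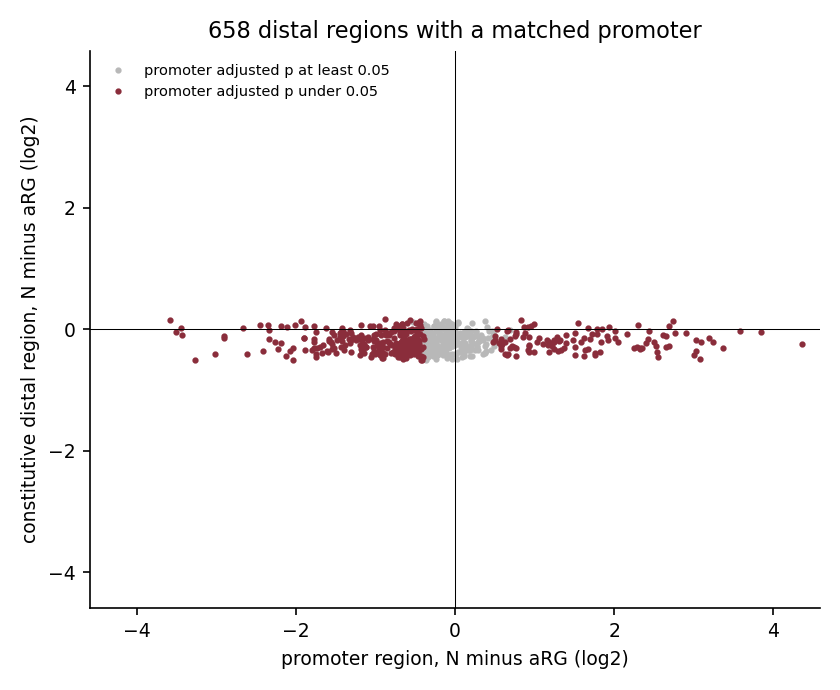
Log2 difference of N from aRG (edgeR fit) at the promoter of the listed gene (horizontal) and at the constitutive distal region (vertical), 1 point for each of 658 regions, in red where the promoter's adjusted p is under 0.05. Promoters range from −3.59 to 4.37, and the regions, held by their selection, from −0.51 to 0.17.

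An open distal region within 50000 bp was present for 733 constitutive regions (58.3%), and the nearest was itself constitutive in 96 cases (13.1%, 10.8 to 15.7%), against 8.63% (8.01 to 9.29%) of 7431 other open distal regions. At gaps up to 1000 bp it was 16 of 76 (21.1%, 13.4 to 31.5%) against 7.59% (5.92 to 9.69%). Adjacent regions can be pieces of 1 accessible stretch and are not independent.

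Genes of chromatin architecture encode CTCF, cohesin and their partners, and 13 of the 24 on the list had a measured promoter. Of these, 6 differed between N and aRG, all lower in N, and CTCF was also lower in bIP than in aRG. The CTCF promoter stood at 62.7 ± 3.65 CPM in aRG and 58.1 ± 0.245 in bRG, and at 44.0 ± 4.36 in bIP and 44.3 ± 9.82 in N (N against aRG log2 −0.65 ± 0.20, adjusted p = 0.00724; bIP against aRG −0.57 ± 0.20, adjusted p = 0.0188). STAG1, a cohesin subunit gene, went from 86.5 ± 4.46 to 56.7 ± 7.47 CPM (log2 −0.75 ± 0.18, adjusted p = 8.5e-04). SMC3, PDS5A, PDS5B and BPTF had log2 differences from −0.42 to −0.51 with adjusted p between 0.0193 and 0.0382, and RAD21, of the cohesin ring, had −0.12 ± 0.19 (adjusted p = 0.581). Counted as called in any pair of cell types, the 6 became 3 without N replicate 1, without aRG replicate 1 or without aRG replicate 3. The count was 10 without N replicate 2 or bIP replicate 3, and 11 without N replicate 3. Within the second library series, 5 of the 6 lost their call for N against aRG. The adjusted p was 0.108 for SMC3, 0.0630 for STAG1, 0.125 for PDS5A, 0.224 for PDS5B and 0.178 for BPTF. CTCF kept it at log2 −0.80 (adjusted p = 0.0497), but not for bIP against aRG (log2 −0.28, adjusted p = 0.636). Any pair was called there for 3 of the 13 genes, CTCF, BPTF and LDB1. The background of 35.3% of all promoters lower in N applies here too.

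The 2 library series gave a comparison that the rule used only in part, since a region with a large difference between series has to balance it across cell types to keep even means, and bRG has only second-series libraries. Between the second and the first series, 74 constitutive regions differed (5.89%), 56 higher and 18 lower in the second. Over all regions it was 15.8% (9.35% higher, 6.49% lower), and 20.6% of the other open distal regions. Scaled by library totals, a choice added after seeing the data, 114 were called, 64 higher and 50 lower, beside 13.7% of all regions. In bIP alone 127 were called, 108 higher and 19 lower, beside 20.9% of all regions, and in N alone 29, of which 8 were higher and 21 lower, beside 11.3%. The count moved to 180 without N replicate 3, where 22.3% of all regions were called, and to between 41 and 49 without N replicate 1 or 4 or without bIP replicate 1, 2 or 4.

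The region with the smallest p lay 43980 bp from AC117945.1 on chromosome 1. It read 6.98 and 6.94 CPM in aRG of the first series and 4.51 in the second, 11.3, 10.7 and 8.02 in bIP of the first and 4.23 and 3.34 in the second, and 10.2 and 13.7 in N of the first against 3.72 and 2.79. Every first-series library of a cell type was above its second-series libraries, and the log2 difference was −1.31 ± 0.19 (adjusted p = 4.4e-05). The bRG libraries stood at 6.86 and 5.67 CPM, above the second-series libraries of each other cell type. The means of the cell types were thus even while the libraries were not. The region 157293 bp from MMS22L, a gene of replication fork repair, behaved alike in bIP, with 9.59, 8.36 and 9.97 CPM against 4.84 and 3.76, and in N, with 9.46 and 8.32 against 4.67 and 2.31 (log2 −0.93 ± 0.17, adjusted p = 6.8e-04). The others lower in the second series were near RN7SL23P, AC060771.1 and AL445123.2, with log2 differences of −0.78 ± 0.16, −0.76 ± 0.17 and −0.59 ± 0.15.

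In the other direction, a region 2198 bp from DACT1, an antagonist of Wnt signalling, read 9.23 and 9.61 CPM in aRG of the first series and 12.9 in the second, 7.88, 6.50 and 8.26 against 16.5 and 11.8 in bIP, and 8.43 and 6.38 against 13.2 and 14.3 in N. The series did not overlap in any of these cell types, with a log2 difference of 0.88 ± 0.16 (adjusted p = 4.0e-04). The constitutive region of ANK3 was among them as well (log2 0.83 ± 0.16, adjusted p = 0.00104), as were those near AC007496.2, AC005042.2 and HUNK-AS1 (0.80 ± 0.15, 0.83 ± 0.16 and 0.71 ± 0.15). What differs between the series beyond the library numbers is not given, and its part in the result was not tested.

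**Figure D5:**
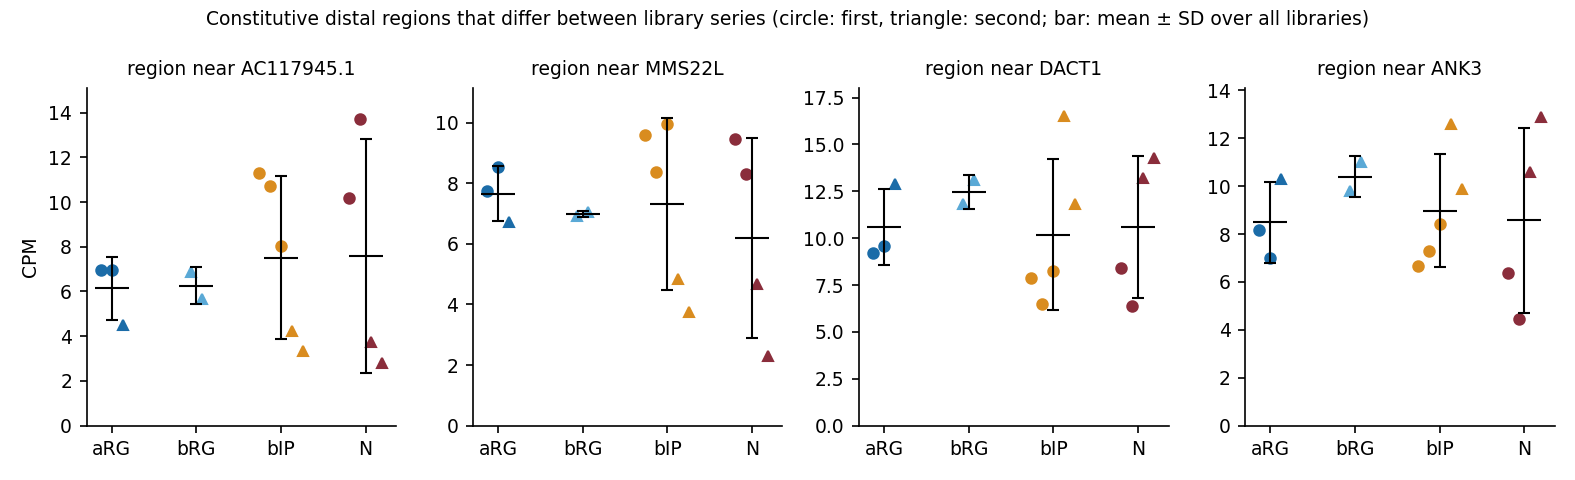
CPM in each library of 4 constitutive distal regions that differed between the library series, with circles for the first and triangles for the second series and bars for mean ± SD over all libraries of a cell type. Near AC117945.1 and MMS22L the bIP and N libraries of the second series lie below those of the first, and near DACT1 and ANK3 above, while the cell type means differ by at most 1.24-fold.

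Choosing regions in 1 series and reading them in the other showed how often evenness recurred. With aRG, bIP and N, which both series hold, 1988 distal regions met the rule in the first series, and 679 of them (34.2%, 32.1 to 36.3%) met it again in the second. Of the 10341 distal regions at or above 5 CPM in the first series that were not even there, 726 (7.02%, 6.54 to 7.53%) met it in the second. The median ratio in the second series was 1.32 for the chosen and 2.02 for the rest. In the reverse direction 41.0% recurred, and with a limit of 50% in place of 25% it was 55.7% against 11.6%. Of the 1257 constitutive regions, 927 (73.7%) met the rule within the first series over 3 cell types and 706 (56.2%) within the second over 4. With the limit at 50%, a ratio within it was found for 97.7% and 93.4%, and the largest ratio within a series was 2.12 in the first and 2.54 in the second. The shares of the 1257 come from the libraries that chose the regions and are no independent recurrence.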

How the data were processed

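The authors deposited raw counts of reads for each region in each library and 1 peak set per cell type, in narrowPeak layout per the file headers, of which the deposited fold enrichment (a ratio) at the summit was used. Per the submitters' processing notes, bcl2fastq 2.20.0, MACS2, hg38 and panTro6 were used; for the aligner, the counter and a shift of reads to the cut site, nothing is given in the sources used here. Region positions are gorGor6 per the file headers, printed from 1. The peak sets state no build, and between 5601 and 7593 peaks of a set equal a region of the table exactly.

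Of 218080 regions, 13823 had no gorilla position and counts of 0 throughout, and 8 repeated a position; these were left out. Levels are CPM on library totals. Distances are those of the table, whose reference point is not stated. A gene's promoter is its region within 1000 bp with the highest mean. Gene types came by symbol from RefSeq (NHGRI_mGorGor1-v2.1_pri).

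edgeR 4.0.16 (R 4.3.3; TMM, filterByExpr, 200931 regions, 14 libraries, a term for the series, 9 residual degrees of freedom, trended dispersion, quasi-likelihood test, Benjamini-Hochberg over all regions, threshold 0.05) gave log2 differences, standard errors and p-values, after a check on simulated data. DESeq2 1.42.0 was an alternative. Overlaps with peaks used bedtools 2.31.1, with 1 bp as the least overlap. The regions, gene lists and alternatives were chosen with earlier results of these data known. Named regions were the 10 strongest, the 5 most even, those at the limits, the 5 with the smallest p in each direction between series, those of the marker lists and genes with most regions, and the promoters with the 5 smallest p in each direction and comparison, protein-coding genes first.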

Additional observations from a re-analysis of the deposited data

Results flagged for a closer look

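In groups of 4 or 5 libraries, 160 sets of values of named regions and promoters, and of the counts in constitutive regions, were searched for a library far from the others, which chance gives in about 1 set in 20, and 6 were found. N replicate 2 stood at 56.0 CPM at the region near HRC, against 44.8 to 46.4 in the other N libraries, and at 32.6 CPM at the BPTF promoter, against 23.9 to 24.8. In bIP replicate 3, which has the fewest counts, the region near GNGT2 stood at 44.6 CPM against 51.3 to 52.9, and the PDS5B promoter at 33.6 CPM against 41.9 to 44.9. The region near STOML1, among the most even by its means, stood at 3.79 CPM in bIP replicate 4 against 5.83 to 6.63. The TRAK1 promoter stood at 5.08 CPM in N replicate 3 against 2.96 to 3.30.

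At 6 of the named regions and promoters searched, every second-series library differed from every first-series library in opposite directions in bIP and N. Such a difference between cell types was not tested. With few libraries per series, separation of this kind can arise by chance, and how often was not worked out for these or for all regions. Means of the second series minus the first were 6.98 CPM in bIP and −11.4 in N near GTF2IRD2, 2.16 and −4.56 near AP003100.3, the most even region of all, and 1.85 and −3.35 at the region 5496 bp from PRR7-AS1. They were −1.19 and 1.92 near PPP1R17, −1.88 and 1.56 at the region 28718 bp from WNT8B, and 6.18 and −11.9 at the CTCF promoter.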

How the results depend on the processing

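The 1257 regions became 1010 with TMM-scaled CPM (781 of them shared), 1292 in the second series alone (706 shared), 1118 with medians, and 1046 to 1379 with 1 library left out; limits of 15% and 50% gave 405 and 3582, and minimums of 2 and 10 CPM 2710 and 654. Recurrence in the other series was 41.0% in reverse and 55.7% at a limit of 50%. Calls between series were 150 of 804 tested (83 higher, 67 lower) with a filter of 10 CPM in 2 libraries, beside 27.6% of all regions. With library totals they were 114, beside 13.7% of all regions. In bIP alone 127 were called, in N alone 29, and with 1 library left out 41 to 180. Promoter calls with 1 library left out were 163 to 323 (bIP against aRG), 209 to 273 (N against bIP), 309 to 400 (N against aRG) and 3 to 11 (architecture genes). The second series alone gave 78, 220, 214 and 3. The 10 CPM filter gave 11 architecture promoters. Under it the split of N against bIP turned to 147 higher and 84 lower, beside 68.1% of all regions called. For bIP against aRG it was 70 and 198, beside 70.1%. The cause was not tested. Fewer libraries entered the fits of 1 series.

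Replicate numbers did not meet the limit for pairing in every pair: 7 of 16 same-numbered pairs correlated above 0.1 (−0.26 to 0.34; within 1 series 7 of 8, at 0.14 to 0.34, the exception at −0.03), and 3 of 14 libraries correlated best with their own number. A replicate block left 0 constitutive regions called between series (23 at an unadjusted p under 0.05), with 0.0229% of all regions called, and turned the region near HUNK-AS1 to −0.00 (log2); in aRG, bIP and N, numbers 1 and 2 are of the first series and 4 and 5 of the second. Promoter calls under the block were 193, 219 and 404, and 9 for architecture genes. Of 47 single results, 17 lost their call under some alternative, 10 of them, each a named difference between series, under the block. Each constitutive region had at least 38 counts in every library, and intervals were widest where the 2 bRG libraries entered.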
